A study of Mus musculus with 6 samples.

Results

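Enterocytes are the absorptive cells of the intestinal epithelium. They arise from dividing crypt cells, move up onto the villus and build a brush border of microvilli, where membrane hydrolases cut sugars and peptides and transporters take up the products, while inside the cell dietary fat is re-esterified and packed with apolipoproteins into chylomicrons. The genes described here are 38 markers of that programme, fixed as a list by symbol, out of 55331 genes in the deposited gene table. All 38 were found, and 37 of them were among the 15460 genes that the authors tested. The exception was Sis, sucrase-isomaltase, which is listed with a level in both groups but with the test status FAIL.

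The study sequenced polyadenylated RNA of small intestinal crypt cells, 3 WT and 3 PTBP1_KO samples, to ask what loss of PTBP1, an RNA-binding protein that regulates splicing, does in the intestinal epithelium. All mice were C57BL/6, 60 days old and carried floxed Ptbp1 alleles (Ptbp1f/f). PTBP1_KO mice carried in addition 1 copy of Vil-creER, a tamoxifen-inducible Cre driven by villin sequences that acts in the intestinal epithelium and not in other cells of the gut wall, and WT mice lacked it. Both groups received tamoxifen at 100 mg/kg in 2 daily injections, and cells were taken 20 h after the last one. Villi were scraped off before the crypts were released in EDTA, so villus enterocytes were depleted by design to an unknown extent.

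Levels are the authors' FPKM, a level scaled to transcript length and library size, which can be compared between genes. The gene table gives 1 FPKM per group, so no spread between mice stands beside any level, the depth behind it is unknown, and the only tests of level are those in the authors' deposited table. Nothing in the labels says whether the 3 samples of a group came from separate mice, so its p-values cannot be taken to cover the spread between mice. How far they reflect the spread of a single gene between samples cannot be seen from 1 value per group. The targeted gene Ptbp1 had 230.0 FPKM in WT and 122.8 in PTBP1_KO, which is 53.4% of the WT level. The defining enterocyte markers were all high in both groups: Alpi had 108 FPKM in WT and 103 in PTBP1_KO, Fabp1 had 2551 and 2470, and Sis had 390 and 335. In bulk samples, fewer cells of a type and less RNA per cell cannot be told apart.

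One library stood apart for most of these genes. The splicing tables list reads for 6 libraries in 2 sets of 3, without naming a genotype for them in the headers, so these libraries were assigned to no group. For each gene, the reads of its skipped exon event with the most reads were scaled to 1000000 of the library's 32226951 to 39774266 skipped exon reads, which gives reads per 1000000, or RPM. The first library of the first set had the highest value for 32 of the 37 enterocyte genes with such an event, against 15.0% of 6117 genes with a mean of at least 200 reads. The third library of the first set had the lowest value for 22 of the 37, against 21.4% of the 6117 genes. Over those 6117 genes, the first library of the first set had the lowest value for 34.9%. The gene table cannot be recomputed without any library.

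The promoters of 4 of these genes are shown first, 3 with matches to the motifs counted below and Ada as a gene with none. Alpi encodes intestinal alkaline phosphatase, Sis sucrase-isomaltase, Rbp2 the intestinal retinol-binding protein and Ada adenosine deaminase. Each sequence is the 250 bases before the RefSeq transcription start on GRCm38.p6, 5′ to 3′ on the strand of the gene, and none overlaps an annotated exon. Capitals mark matches, on either strand, to 4 motifs: the TATA box TATAAA, the HNF4 motif CAAAGTCCA, the CDX motif TTTATNG and the GATA motif AGATAA. The windows are chr1:87101607-87101856 on the minus strand for Alpi, chr3:72967864-72968113 on the minus strand for Sis, chr9:98490287-98490536 on the plus strand for Rbp2 and chr2:163750240-163750489 on the minus strand for Ada.
Alpi promoter: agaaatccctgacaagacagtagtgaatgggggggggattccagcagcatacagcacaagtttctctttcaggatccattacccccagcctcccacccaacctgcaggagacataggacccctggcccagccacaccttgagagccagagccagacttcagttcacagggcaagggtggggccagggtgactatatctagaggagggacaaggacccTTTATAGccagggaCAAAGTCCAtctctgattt
Sis promoter: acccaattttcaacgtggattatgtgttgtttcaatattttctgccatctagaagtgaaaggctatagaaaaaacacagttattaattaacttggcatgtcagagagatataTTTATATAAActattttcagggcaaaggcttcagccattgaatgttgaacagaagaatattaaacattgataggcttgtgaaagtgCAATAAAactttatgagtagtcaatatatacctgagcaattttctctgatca
Rbp2 promoter: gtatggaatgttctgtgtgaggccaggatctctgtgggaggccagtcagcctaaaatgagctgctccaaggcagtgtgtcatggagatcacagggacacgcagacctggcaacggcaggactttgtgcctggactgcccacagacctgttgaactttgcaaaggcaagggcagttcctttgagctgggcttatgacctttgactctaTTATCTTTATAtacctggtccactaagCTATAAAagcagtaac
Ada promoter: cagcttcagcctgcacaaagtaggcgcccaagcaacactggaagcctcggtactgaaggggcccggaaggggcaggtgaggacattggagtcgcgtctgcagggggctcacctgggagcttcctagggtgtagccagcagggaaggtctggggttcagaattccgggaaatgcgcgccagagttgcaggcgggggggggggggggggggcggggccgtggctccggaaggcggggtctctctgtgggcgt

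Alpi carries a TATA match that overlaps a CDX match, followed by an HNF4 match that starts 19 bases before the transcription start. Sis holds overlapping TATA matches on both strands and a CDX match 52 bases before the start. Rbp2 holds a GATA match that runs into a TATA match, and a second TATA match inside a CDX match. Ada holds none of the 4 motifs. Of the 38 genes, 32 had a promoter in the RefSeq table, and the shares that follow are over windows from 250 bases before to 50 bases after the start. TATAAA was found in 10 of the 32, or 31.3%, against 15.7% of 27025 genes. CAAAGTCCA was found in Alpi and Treh only, 6.25% of the 32 against 0.555% of all genes. TTTATNG was found in 9, or 28.1%, against 12.5%, and AGATAA in 8, or 25%, against 12.7%. Of 11 CDX matches, 5 overlapped a TATA match, so the CDX and TATA counts are not separate. In 6 genes a TATA match started between 40 and 20 bases before the start. It lay on the strand of the gene in Fabp1, Krt20 and Mgam, and on the other strand in Ace, Alpi and Rbp2. The share of all genes with a match at that place was not computed. A match is a stretch of letters and not a shown binding site.

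The enterocyte genes were among the most abundant transcripts of these crypt preparations. In WT, 27 of the 38 lay in the top 10% of tested genes by FPKM and 6 in the top 1%, and 21 had at least 100 FPKM. Together they held 2.76% of all FPKM in WT and 2.69% in PTBP1_KO. The 6 above 1000 FPKM were the apolipoprotein genes Apoa1 and Apoa4, the binding proteins Fabp1, Rbp2 and Fabp2, and Anpep, which encodes aminopeptidase N. Nt5e was lowest, at the 40.9th percentile of tested genes, and the WT levels spanned 547-fold.

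**Figure D1:**
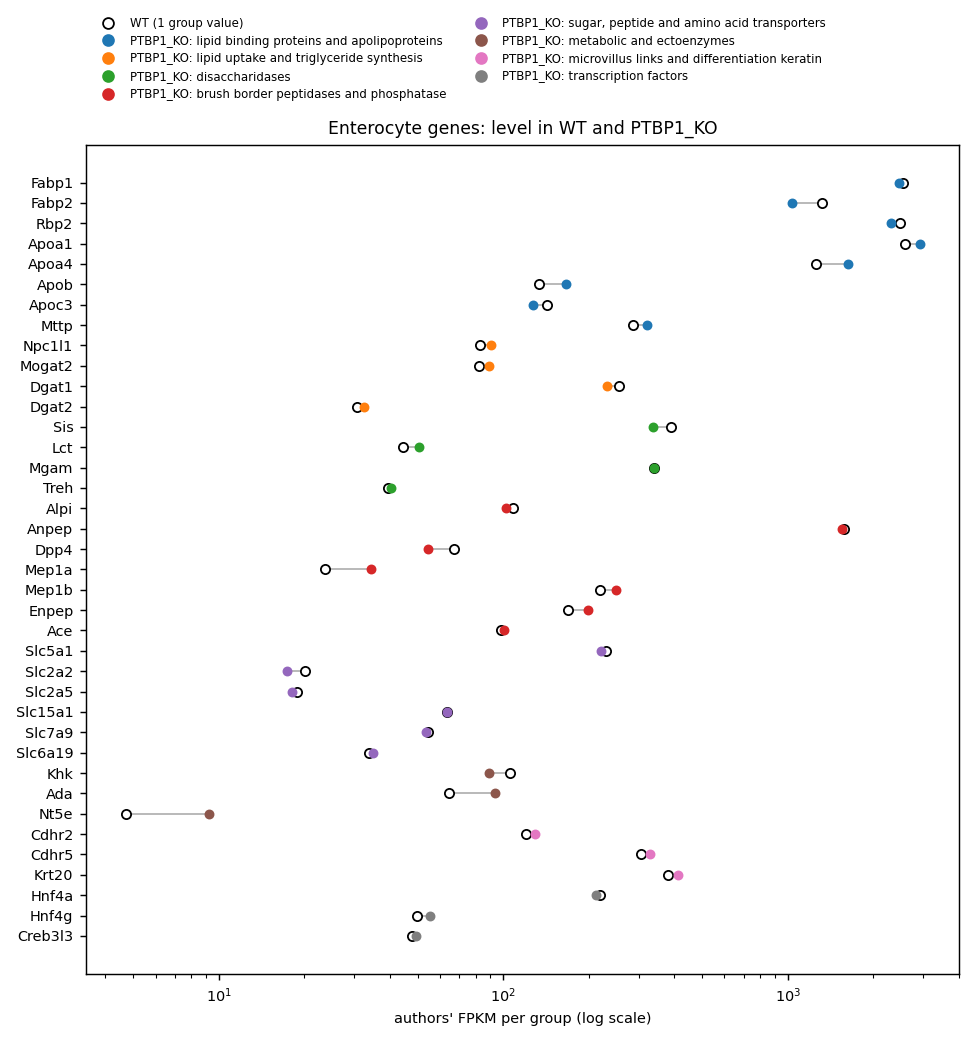
Level of each of the 38 enterocyte genes, grouped by role, as the authors' FPKM on a log scale; open circles are WT, filled circles PTBP1_KO, and each is 1 value per group with no error available. For most genes the circles lie close together, and Nt5e shows the widest gap, from 4.71 to 9.26 FPKM.

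Of the list, Nt5e alone passed the authors' test at q < 0.05, 1 of the 37 tested genes, where 0.537% of all 15460 tested genes passed (83 genes), 0.388% higher and 0.149% lower in PTBP1_KO. The median log2 ratio of PTBP1_KO over WT, computed as log2((PTBP1_KO + 1)/(WT + 1)) from FPKM, was 0.04 over the 37 genes and 0.02 over all tested genes. The ratio was above 0 for 22 and below 0 for 15, and 54.7% of all tested genes were above 0. It ranged from -0.35 for Fabp2 to 0.84 for Nt5e, and 28 of the 37, or 75.7%, lay within 0.2 of 0, as did 80.0% of all tested genes. The 9 beyond 0.2 were Nt5e, Ada, Mep1a, Apoa4, Apob and Enpep above and Fabp2, Dpp4 and Khk below.

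An unadjusted p below 0.05 was listed in the authors' deposited table for 3 of the 37, which is 8.11% and where 4.35% of all tested genes reached it. These were Nt5e, Mep1a and Ada, all higher in PTBP1_KO, a direction that 2.69% of all tested genes took at that threshold. At q < 0.1 the count was 2, Nt5e and Mep1a, against 0.679% of all tested genes. No gene could pass q < 0.01, because the lowest p listed in the authors' deposited table, 5e-05 for 62 genes, corresponded to q = 0.0125.

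**Figure D2:**
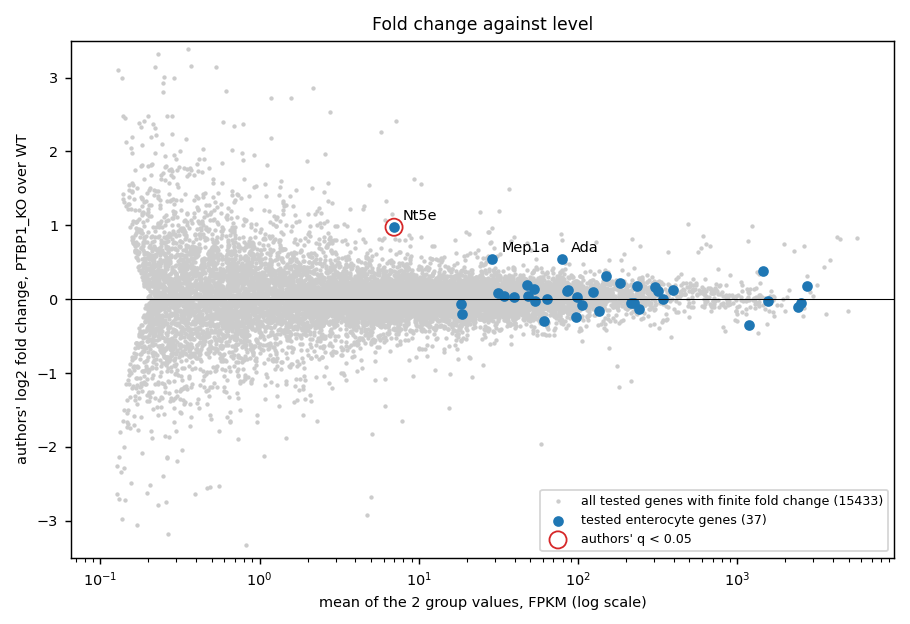
The authors' log2 fold change of PTBP1_KO over WT against the mean FPKM of the 2 groups on a log scale; grey points are tested genes with a finite fold change, blue points the 37 tested enterocyte genes, and the red ring marks q < 0.05. Of the grey genes, 13 lie beyond the axis limits of 3.5, and a further 27 tested genes have no finite fold change; Nt5e lies highest among the blue points, at 0.97.

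Nt5e (ENSMUSG00000032420.8, mm10 chromosome 9, 88327197 to 88372092, plus strand) encodes CD73, the ectoenzyme that turns extracellular AMP into adenosine. It rose from 4.71 FPKM (WT) to 9.26 FPKM (PTBP1_KO), a log2 fold change of 0.97 with p = 5e-05 and q = 0.0125 in the authors' deposited table. The 6 libraries had 15.2, 5.45 and 2.61 RPM in the first set and 2.17, 3.94 and 4.32 in the second. The value of the first library was therefore 2.80 times that of the next, and the other 5 libraries of both sets overlapped. The event behind these values held 72 to 500 reads per library. The highest library was 7.01 times the lowest, the widest ratio among the 37 genes. CD73 is also made by lymphocytes, and some immune markers passed the authors' test. Of 11 tested immune markers, 3 were called higher (Cd8a, Gzma and Gzmb), where 0.388% of all tested genes were. All 11 had a ratio above 0, and their median log2 ratio was 0.56. Their summed level was 914 FPKM in WT and 1110 in PTBP1_KO. Most of that sum was Cd74, which was not called, with 790 FPKM in WT and 898 in PTBP1_KO. For 8 immune markers, the median level relative to each gene's median over libraries was 0.767, 1.74 and 1.39 in the first set. It was 1.14, 0.929 and 0.402 in the second, so the sets overlapped. The library where Nt5e was highest is the one at 0.767. The part of these cells and of that library in the Nt5e difference was not tested.

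Ada (ENSMUSG00000017697.3, mm10 chromosome 2, 163726584 to 163750239, minus strand) encodes adenosine deaminase, which turns adenosine into inosine. It had 64.6 FPKM in WT and 93.9 in PTBP1_KO, a log2 fold change of 0.54 with p = 0.00115 and q = 0.143 in the authors' deposited table, so it did not pass. Its 6 libraries had 204, 98.2 and 48.6 RPM in the first set and 77.7, 92.7 and 94.9 in the second. The first library of the first set again stood above the rest, and the third was lowest, so the first set enclosed the whole second set. Khk, the ketohexokinase that starts fructose breakdown, had 106 FPKM in WT and 89.5 in PTBP1_KO and an unadjusted p of 0.162 in the authors' deposited table.

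Mep1a and Mep1b encode the alpha and beta subunits of meprin, a brush border metalloprotease. Mep1a (ENSMUSG00000023914.16, mm10 chromosome 17, 43474324 to 43502812, minus strand) was listed at 23.6 FPKM in WT and 34.3 in PTBP1_KO. Its log2 fold change was 0.54 with an unadjusted p of 0.00045 and q = 0.0740 in the authors' deposited table. The libraries had 49.2, 20.0 and 31.7 RPM in the first set and 28.1, 29.0 and 19.5 in the second. Here too the first library was highest, and the remaining values of the sets overlapped. Mep1b had 220 FPKM in WT and 249 in PTBP1_KO, so it exceeded Mep1a 9.31-fold in WT and 7.25-fold in PTBP1_KO.

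None of the other brush border peptidases nor the phosphatase passed the authors' test. Anpep, the aminopeptidase, was the most abundant of them, with 1573 FPKM in WT and 1549 in PTBP1_KO. Enpep, which removes acidic residues, had 170 and 198 FPKM, and Ace, the angiotensin-converting enzyme, had 97.9 and 100.3 FPKM. Dpp4, which cuts after proline, had 67.3 FPKM in WT and 54.6 in PTBP1_KO and an unadjusted p of 0.0703 in the authors' deposited table, and Alpi was at 94.8% of its WT level. The median log2 ratio of this group of 7 was 0.03, with 4 above and 3 below 0.

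The disaccharidases differed in level far more among themselves than between genotypes. Mgam, maltase-glucoamylase, had 340 FPKM in WT and 339 in PTBP1_KO, and Treh, trehalase, had 39.4 and 40.2 FPKM. Lct, the lactase of milk digestion, had 44.3 FPKM in WT and 50.6 in PTBP1_KO and an unadjusted p of 0.250 in the authors' deposited table. Mgam was thus 8.62 times Treh and 7.67 times Lct in WT. Sis was listed at 390 FPKM in WT and 335 in PTBP1_KO with no test. Its 6 libraries had 767, 406 and 482 RPM in the first set and 612, 514 and 563 in the second, so that again the first set enclosed the second.

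Among fatty acid and retinol binding proteins and chylomicron genes, none of 8 passed, and 4 were above and 4 below 0, with a median log2 ratio of 0.06. Fabp2, the intestinal fatty acid binding protein, had the lowest ratio on the list: 1318 FPKM in WT and 1033 in PTBP1_KO, and an unadjusted p of 0.0851 in the authors' deposited table. Its 6 libraries had 2320, 1072 and 1496 RPM in the first set and 2347, 2514 and 1939 in the second. Unlike most of the list, Fabp2 was highest in the second library of the second set. The liver-type protein gene Fabp1 had 2551 and 2470 FPKM, and Rbp2 had 2482 and 2306 FPKM, in WT and PTBP1_KO.

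The apolipoprotein genes Apoa1, Apoc3 and Apoa4 lie side by side on chromosome 9, with 2466 bases between Apoa1 and Apoc3 and 5059 bases between Apoc3 and Apoa4. They had very different levels, and their ratios did not share a direction. Apoa1, the main protein of high-density lipoprotein, had 2580 FPKM in WT and 2914 in PTBP1_KO. Apoa4, a protein of chylomicrons, had 1260 and 1636 FPKM and an unadjusted p of 0.296 in the authors' deposited table. Apoc3, an inhibitor of lipoprotein lipase, had 143 and 127 FPKM. In the libraries, Apoa4 had 1968, 895 and 618 RPM in the first set and 787, 974 and 977 in the second. The first library was 2.02 times the next highest, which was in the second set. Apob, whose product is the structural protein of each chylomicron, had 134 FPKM in WT and 166 in PTBP1_KO, and Mttp, which loads it with lipid, had 286 and 321 FPKM.

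None of 4 genes of lipid uptake and re-esterification passed the authors' test, and their median log2 ratio was 0.09. Npc1l1, the cholesterol transporter, had 83.1 FPKM in WT and 90.8 in PTBP1_KO. Mogat2, which makes diacylglycerol from monoacylglycerol, had 82.2 and 89.0 FPKM. Dgat1 and Dgat2, unrelated enzymes that add the last acyl chain of triglyceride, had 254 and 231 FPKM and 30.6 and 32.3 FPKM. Dgat1 was therefore 8.32 times Dgat2 in WT and 7.15 times in PTBP1_KO. Dgat2 lies 36364 bases from Mogat2 on chromosome 7.

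The 6 nutrient transporters had the lowest median ratio of any role group, -0.03, with none called. Slc5a1, the sodium-glucose cotransporter of the brush border, led them with 229 FPKM in WT and 222 in PTBP1_KO. Slc15a1, the di- and tripeptide transporter, had 63.3 and 63.4 FPKM, and Slc6a19, a transporter of neutral amino acids, had 33.9 and 34.8 FPKM. Slc7a9, the light chain of the cystine transporter, had 54.3 FPKM in WT and 53.6 in PTBP1_KO. The facilitative sugar transporters were lowest: Slc2a2, or GLUT2, had 20.1 and 17.4 FPKM, and Slc2a5, the fructose transporter GLUT5, had 18.9 and 18.1 FPKM.

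The brush border and differentiation genes Cdhr2, Cdhr5 and Krt20 all had small ratios above 0, between 0.10 and 0.12. Cdhr2 and Cdhr5, protocadherins that link neighbouring microvilli at their tips, had 120 and 305 FPKM in WT and 129 and 329 FPKM in PTBP1_KO. Krt20, a keratin of differentiated cells, had 379 and 413 FPKM. Of the transcription factors, Hnf4a had 219 and 211 FPKM, its paralogue Hnf4g 49.98 and 55.1 FPKM, and Creb3l3, a membrane-bound regulator of lipid genes, 47.6 and 49.2 FPKM. None of these 6 passed the authors' test. Hnf4a also varied least between libraries on the whole list, with a ratio of highest to lowest of 1.31.

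**Figure D3:**
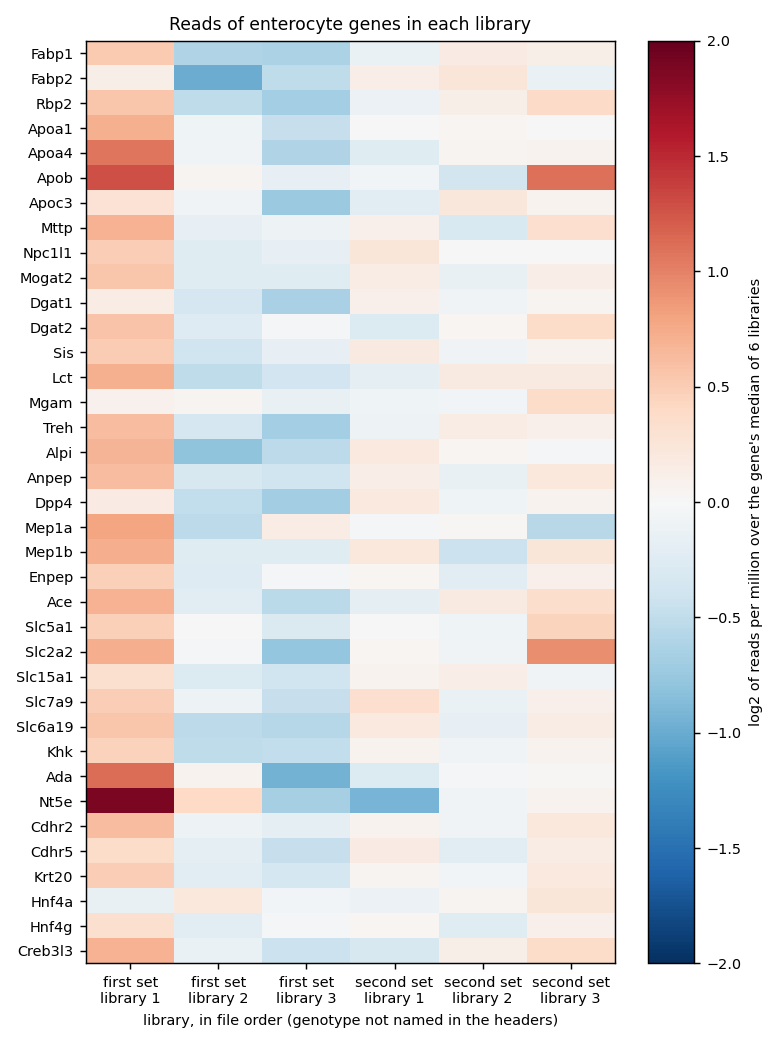
Reads of each enterocyte gene in each of the 6 libraries, as log2 of RPM over the gene's median of the 6, with the libraries in file order and their genotype not named. The first column is red for most of the 37 genes, 32 of which have their highest value there, and the third column is blue for most.

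The spread between libraries was wide for these genes. The ratio of the highest to the lowest library had a median of 2.03 over the 37 genes and of 1.41 over 6115 genes with a mean of at least 200 reads and a value above 0 in every library. It was above 1.5 for 34 of the 37 and above 2 for 19. The enterocyte genes' median level relative to each gene's median of the 6 libraries was 1.47, 0.849 and 0.744 in the first set and 1.03, 0.958 and 1.08 in the second. In the library where it was 1.47, 5 stem cell markers had a median of 0.611 and 6 proliferation genes of 0.690. That library was therefore high for the enterocyte genes and low for stem cell and proliferation genes, and the cause was not tested. By role, its median was highest for the metabolic and ectoenzymes, at 2.18, and lowest for the transcription factors, at 1.24.

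**Figure D4:**
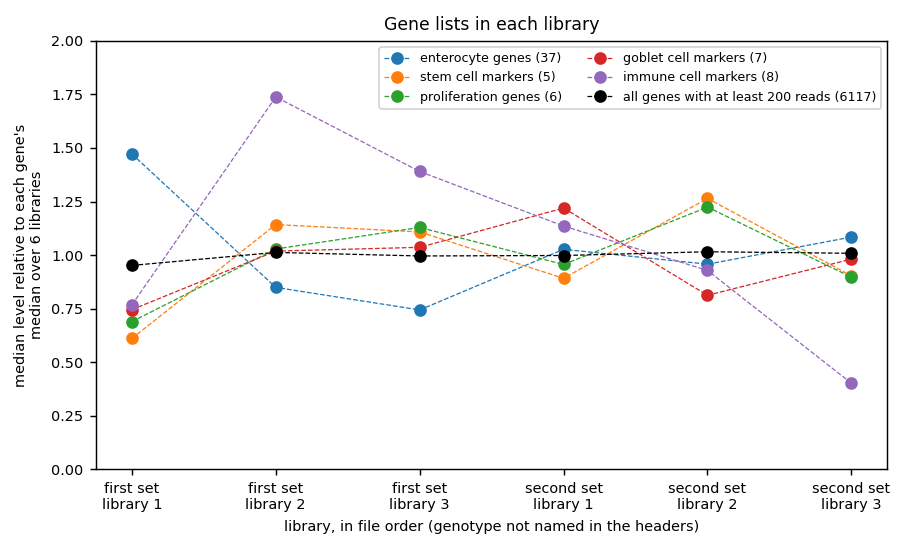
Median level of 5 gene lists and of all genes with a mean of at least 200 reads, relative to each gene's median over the 6 libraries; dashed lines join the points of 1 list and imply no order. In the first library of the first set the enterocyte genes are at 1.47 and the stem cell markers at 0.611, while all genes are at 0.952.

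Splicing of the enterocyte genes was nearly the same in the 2 sets of libraries. With at least 20 reads per library on average, 280 events were covered in 37 of the 38 genes, all but Slc2a5. An event counted as changed at the authors' FDR below 0.05 with an inclusion level difference of at least 0.1. By that rule 1 of 280 changed, in Slc7a9, where 1.56% of 53918 events over all genes did. By gene this was 1 of 37, where 6.61% of 9340 genes had a changed event. At FDR below 0.05 with any difference the count was 4, in Slc7a9 and Khk, against 3.76% of all events. The difference was below 0.05 in size for 276 of the 280. Depth was not low here, with a median of 2227 reads per event and library against 262 over all events. For 206 of the 280, however, the median inclusion level over the libraries was close to 1, so most concern stretches that were nearly always included. The same share over all events was not computed, so the counts do not show that these genes are more stable than others.

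The changed Slc7a9 event concerns a 106-base exon at mm10 chromosome 7, 35449349 to 35449454, on the plus strand, annotated as 5′ UTR of the transcript Slc7a9-202. Its inclusion level was 0.288, 0.223 and 0.291 in the first set and 0.105, 0.116 and 0.0869 in the second. The sets did not overlap, and the authors' difference was 0.165 with p and FDR listed as 0. The event had 323 to 602 reads per library. The exon shares its end with a 285-base first exon of another coding transcript, which starts at 35449170, so reads counted as inclusion can also come from that transcript. The coding sequence is not part of this exon, and the level of Slc7a9 was 54.3 FPKM in WT and 53.6 in PTBP1_KO. Which set is PTBP1_KO was not given, so the direction by genotype is not stated. An alternative 5′ splice site and a retained intron of Slc7a9 also had FDR below 0.05, at 0.0121 and 0.0344, with differences of only 0.027 and 0.041.

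Khk has a pair of alternative coding exons, 3A and 3C, that give the enzyme's A and C forms, of which the C form is that of fructose-metabolising tissues. They are shown because exon 3C had the smallest FDR on the list after the Slc7a9 exon, and 3A is its partner. Both are on mm10 chromosome 5, plus strand, 3A at 30926688 to 30926822 and 3C at 30927022 to 30927156. Capitals mark the positions at which the exons are identical when laid side by side from their first base, 73 of 135, or 54.1%.
Khk exon 3A: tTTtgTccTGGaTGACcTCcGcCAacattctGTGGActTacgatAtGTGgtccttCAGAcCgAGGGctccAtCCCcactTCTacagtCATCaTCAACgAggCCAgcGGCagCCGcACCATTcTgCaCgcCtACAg
Khk exon 3C: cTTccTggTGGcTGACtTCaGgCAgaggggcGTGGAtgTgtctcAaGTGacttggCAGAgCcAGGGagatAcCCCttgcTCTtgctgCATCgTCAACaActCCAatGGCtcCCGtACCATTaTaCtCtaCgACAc

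Exon 3C carried most reads in every library, with 1854 to 3395 inclusion reads against 118 to 181 for exon 3A. Its inclusion level, against skipping of both exons, was 0.943, 0.932 and 0.938 in the first set and 0.890, 0.869 and 0.926 in the second. The sets did not overlap, but the difference was 0.043, with FDR = 9.33e-05 in the authors' deposited table. Exon 3A had inclusion levels of 0.447, 0.501 and 0.455 in the first set and 0.287, 0.352 and 0.421 in the second. These did not overlap either, and the difference of 0.114 had FDR = 0.0529 in the authors' deposited table, just outside the threshold. Both events use the same skipping reads, those that join the exon before to the exon after, so they are not independent. The direct comparison of 3A with 3C differed by -0.003, with an unadjusted p of 0.51 in the authors' deposited table.

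**Figure D5:**
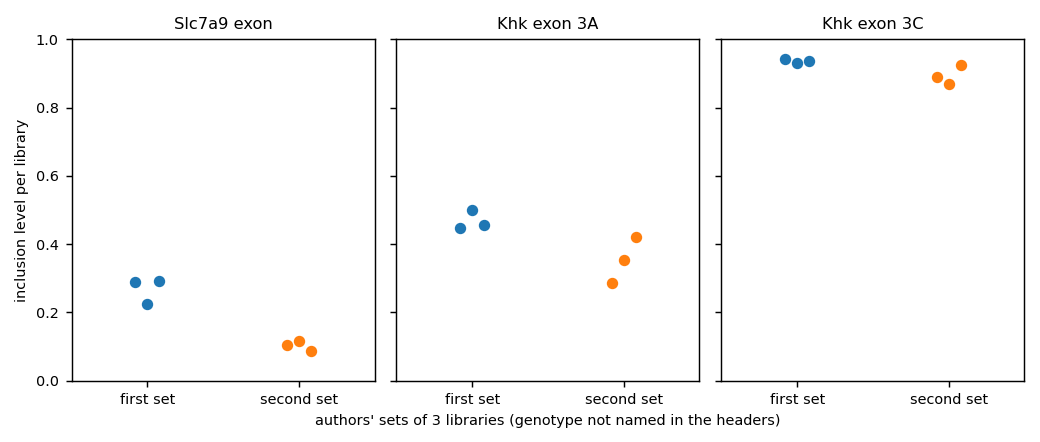
Inclusion level in each library for the Slc7a9 exon and the Khk exons 3A and 3C; points are single libraries, and the 2 sets are the authors', with genotype not named. The sets do not overlap in any panel, with the widest gap for Slc7a9, from 0.116 to 0.223. The Slc7a9 exon and Khk exon 3C were picked by the authors' FDR between these sets, and 3A as the partner of 3C. The separation is therefore no support beyond that FDR, and the Khk panels share their skipping reads.

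Beyond the list, 9 further lists of enterocyte genes held 130 tested genes, of which 2 passed the authors' test, Pdx1 and Slc10a2, where 0.537% of all tested genes passed. An unadjusted p below 0.05 was reached by 12, or 9.23%, against 4.35% of all tested genes, 5 of them higher and 7 lower in PTBP1_KO. Their median log2 ratio was 0.06. None of 17 microvillus structure genes passed or reached p below 0.05, and their median was 0.03. Actb, cytoplasmic actin, had 1343 FPKM in WT and 1289 in PTBP1_KO, and Myo1a, the brush border myosin, had 451 and 400 FPKM, the lowest ratio of that list. Pls1, a plastin that bundles microvillar actin, had its highest ratio, with 208 and 232 FPKM.

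Both genes that passed are known from opposite ends of the small intestine. Pdx1, a transcription factor of the duodenum, fell from 2.32 to 0.629 FPKM in PTBP1_KO, a log2 fold change of -1.88 with q = 0.0125 in the authors' deposited table. Slc10a2, the ileal bile acid transporter, had 3.82 FPKM in WT and rose to 6.06 FPKM, a log2 fold change of 0.66 with q = 0.0125 in the authors' deposited table. The other genes of these lists did not pass. Among 8 tested duodenal genes 4 had a ratio above 0 and the median was 0.04, with Gata4 at 58.7 and 49.3 FPKM and the iron exporter partner Heph at 28.6 and 31.4 FPKM. Among 8 ileal genes 6 had a ratio above 0 and the median was 0.23. The bile acid binding protein Fabp6 had 567 and 682 FPKM, Muc13 721 and 827 FPKM, and Amn, part of the vitamin B12 receptor, had the lowest ratio, with 33.5 and 26.3 FPKM.

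No other hydrolase or transporter passed the authors' test. The 13 other brush border hydrolases had a median of 0.09, and 9 had a ratio above 0. Enpp3, which cleaves extracellular nucleotides, had 24.6 FPKM in WT and 37.0 in PTBP1_KO with q = 0.244, and Akp3, a second intestinal alkaline phosphatase, had 3.77 and 1.71 FPKM with q = 0.0527, both in the authors' deposited table. The abundant Ggt1 had 205 and 167 FPKM, and Naaladl1 had 182 and 231 FPKM. Of 20 other transporters 16 had a ratio above 0, with a median of 0.14. Slc28a2, which takes up purine nucleosides, had 22.0 and 31.2 FPKM with q = 0.155 in the authors' deposited table, the highest ratio of that list. Slc13a2, a dicarboxylate transporter, had the lowest, with 19.2 and 15.9 FPKM. Slc26a6 and Slc3a2 were the most abundant, with 157 and 160 FPKM and 109 and 120 FPKM.

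The remaining lists held no gene that passed. Of 22 tested lipid genes 17 had a ratio above 0, with a median of 0.08; Acsl5, an acyl-CoA synthetase, had 432 and 455 FPKM, and Apoc2, the activator of lipoprotein lipase, 295 and 298 FPKM. Of 10 fructose and gluconeogenesis enzymes 5 had a ratio above 0, with a median of 0.01. Gpi1, a glycolytic isomerase, had 432 and 449 FPKM, and Fbp1, fructose bisphosphatase, had 8.22 FPKM in WT and 5.05 in PTBP1_KO with q = 0.134 in the authors' deposited table. The 7 tested retinoid genes had a median of -0.06, with the regulator Isx at 88.2 and 91.2 FPKM and Aldh1a1 at 46.4 and 44.5 FPKM. Of 26 transcription regulators 10 had a ratio above 0, with a median of -0.03. Elf3 had 252 and 244 FPKM, Klf5 184 and 172 FPKM, and Pparg, the lowest, 5.23 and 3.30 FPKM with q = 0.313 in the authors' deposited table.

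Some markers of other cell types were called, where 0.388% of all tested genes were called higher and 0.149% lower in PTBP1_KO. Of 11 Paneth cell markers 3 were called higher (Ang4, Mmp7 and Defa17), and 10 had a ratio above 0. Their median log2 ratio was 0.63, and their summed level was 14790 FPKM in WT and 23193 in PTBP1_KO. For 4 of them, the median level relative to each gene's median over libraries was 1.02, 0.978 and 1.92 in the first set. It was 0.729, 0.736 and 1.35 in the second. Of 8 tuft cell markers 2 were called lower, Sh2d6 among them, and all 8 had a ratio below 0, with a median of -0.56. For 7 of them, the relative level by library was 0.763, 0.993 and 0.804 in the first set. It was 2.03, 1.40 and 0.974 in the second. Of 9 enteroendocrine markers 1 was called higher, Nts, and 8 had a ratio above 0. No goblet, stem cell, proliferation, stromal or red blood cell marker passed, with medians of 0.01, -0.07, -0.04, -0.19 and -0.22, and 9 of 10 pancreatic acinar markers were too low to be tested. The ratio was below 0 for all 7 stem cell markers and for 4 of 7 proliferation genes. The part of these cell types in the values of the enterocyte genes was not tested.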

How the data were processed

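RNA of 3 WT and 3 PTBP1_KO crypt cell samples was sequenced from TruSeq stranded mRNA libraries. The tools were Cuffdiff, Cufflinks, STAR 2.6.1d, Trimmomatic 0.38 and bcl2fastq 2.20, with mm10 as the genome, per the submitters' processing notes. The deposited gene table holds the authors' FPKM, 1 value per group. Its log2 fold changes, p-values and q-values were computed by the authors, per the file headers. The 5 deposited splicing tables hold the authors' counts of inclusion and skipping reads per library, the inclusion level difference as a score between -1 and 1, a p-value and an FDR. Their headers do not name the genotype of the 2 sets of 3 libraries, so the model planned for named sets was not run and the authors' FDR was used.

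A pseudocount of 1 FPKM was added for log2 ratios. A gene was called at the authors' q < 0.05 with status OK. An event was changed at FDR < 0.05, a difference of at least 0.1 and a mean of at least 20 reads. The tables' own inclusion levels (10 columns) were left unused, and those printed were computed from the reads and effective lengths. The 38 genes and all lists were chosen with earlier results of these data known. All 38 identifiers matched GENCODE M21, 37 of them with their version. The genes named are all 38 and Ptbp1; of each further list, those with q < 0.05, the 2 highest in WT, and the highest and lowest fold change among genes of at least 1 FPKM; every changed event; and a few others picked with values in view. Some genes that this rule names are not reported here. Of the 38 genes, 16 overlap another annotated gene, and whether counting used strand is not given in the sources used here. Scripts used Python 3.11.15, numpy 2.4.6, pandas 2.3.3 and matplotlib 3.10.9. Only the log2 ratio and the adjustment of p-values were tested on simulated data.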

Additional observations from a re-analysis of the deposited data

Results flagged for a closer look

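Among the 6 libraries, which are not 1 group and whose genotype is not named, the highest value lay far from the others for 4 of the 37 enterocyte genes, 10.8%. The gap to the next library was 0.682 of the whole range for Ada, 0.669 for Apoa1, 0.734 for Apoa4 and 0.749 for Nt5e, above Dixon's critical value for 6 samples. In all 4 genes this was the first library of the first set. Chance alone gives such a gap in about 1 in 20 groups, and 5.35% of 6117 genes with a mean of at least 200 reads had one at either end.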

How the results depend on the processing

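The number of enterocyte genes called was 1 at q < 0.05. It was 0 at q < 0.01, which no tested gene could pass, as the lowest q was 0.0125. The count was 2 at q < 0.1 and 3 at an unadjusted p below 0.05 in the authors' deposited table. For the further lists the count of 2 became 12 at that unadjusted p. Centring on the median of all tested genes, 0.02, moved the median log2 ratio of the 37 genes from 0.04 to 0.0208 and turned Slc15a1 from 0.0021 to -0.0145; the other 36 kept their sign, as did all 37 with pseudocounts of 0.1 and 5 FPKM or none. The changed splicing events numbered 1, but 0 at a difference of at least 0.2 and 4 with no minimum difference. The first library of the first set was highest for 31 genes instead of 32 when all skipped exon events were summed, an alternative chosen after seeing the data. Leaving out each replicate was not run for gene levels, because the gene table holds 1 value per group. No paired analysis was possible because that table has no values per library and the splicing tables do not tie libraries to replicate numbers.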

Other observations

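The product of Nt5e makes adenosine, and that of Ada turns adenosine into inosine. For that reason 18 genes of purine handling were looked at together, a list chosen after the values of Nt5e and Ada were seen and therefore given without a test. Of the 18, 11 had a log2 ratio above 0, or 61.1% against 54.7% of all tested genes. An unadjusted p below 0.05 in the authors' deposited table was listed for 5, against 4.35% of all tested genes: Nt5e and Ada, which prompted the list, and Slc28a2, Enpp3 and Entpd1, all 5 higher in PTBP1_KO. Only Nt5e passed q < 0.05. Entpd1, which encodes CD39 and degrades extracellular ATP, had 0.138 FPKM in WT and 0.335 in PTBP1_KO. The intracellular enzymes Xdh, Pnp and Gda had 75.1, 49.6 and 60.1 FPKM in WT and 77.6, 47.5 and 64.2 FPKM in PTBP1_KO. Slc28a2 and Enpp3 come from the further lists above, where each had the highest ratio of its list. The counts of this purine list therefore cannot be read against the shares of all tested genes.

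Of 16 of these genes with a covered skipped exon event, 7 were highest in the first library of the first set: Ada, Enpp3, Entpd5, Gda, Nt5e, Slc28a2 and Xdh. The other 9 were highest in another library; Adk, for example, had 34.4, 37.4 and 43.8 RPM in the first set and 36.1, 39.9 and 32.5 in the second. Enpp3 had 47.9, 20.6 and 10.8 RPM in the first set and 16.7, 20.0 and 18.5 in the second. Slc28a2 had 22.4, 14.8 and 10.8 in the first set and 7.46, 9.81 and 11.9 in the second.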
